A study of Arabidopsis thaliana with 6 samples.

Results

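The genes described here are those of the deposited Arabidopsis transcript table whose Gene Ontology (GO) text names mRNA splicing via the spliceosome or the spliceosomal complex. Of 239 genes with that text, 15 with the word arginine in their description and 11 listed by ID, 8 of them CDC5 and its partners in the MOS4-associated complex, were left out, which gave 213 of the 27947 genes in the table, with 441 of its 45666 transcripts. Tested plants carried the cdc5 genotype, with the allele not named, and were set against the wild type Col-0, with 3 libraries each, all labelled as rosette leaves; age, treatment and growth conditions are not stated. Values are FPKM, fragments scaled by transcript length and by the size of the library, summed over the transcripts of a gene. By its title, the study links CDC5 to the floral transition. The name core spliceosome fits these genes in part only, because the GO text also brings in a putative alpha-xylosidase (XYL2) and several kinases and general RNA-binding proteins, so they are called spliceosome-annotated genes here.

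The spliceosome removes introns from pre-mRNA. Small nuclear RNAs and their proteins form the U1, U2, U4, U5 and U6 particles, in which U1 meets the 5' splice site, U2 and its helper U2AF meet the branch point and 3' splice site, and the U4/U6.U5 tri-snRNP then joins. Helicases drive the rearrangements, and a complex built around PRP19 and CDC5, known in plants as the MOS4-associated complex, enters as the catalytic centre forms. A minor spliceosome with U11 and U12 removes a rare class of introns.

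In cdc5, spliceosome-annotated genes were more often higher than lower. The test needed an average of at least 1 FPKM across the libraries, which 193 of the 213 reached. By limma on log2(FPKM + 1), with a Benjamini-Hochberg adjusted p under 0.05 over all 19778 genes tested, 102 of the 193 were higher in cdc5 and 19 lower, and 72 did not pass. The shares were 52.9% higher and 9.85% lower, or 62.7% called, beside 33.3% higher and 22.4% lower, or 55.8% called, of all tested genes. The median log2 fold change was 0.21 over the 193 genes and 0.06 over all genes. Changes were small: the median ratio of cdc5 to Col-0 mean FPKM was 1.29 among the 102 higher genes, with quartiles at 1.2 and 1.42, and 0.795 among the 19 lower ones. Only 15 of the higher genes reached a ratio of 1.5. Taken library by library, the median log2 difference of the 193 from their own Col-0 mean was 0.23, 0.19 and 0.21 in the cdc5 libraries. Over all tested genes it was 0.07, 0.06 and 0.07 in the same libraries. The Col-0 libraries gave 0.02, -0.02 and 0.01 for the 193, near 0 by construction because they make up that mean. In 132 of the 193, or 68.4%, the cdc5 libraries did not overlap the Col-0 libraries, with 109 higher and 23 lower, beside 63.6% of all tested genes, 38.1% higher and 25.5% lower. The 20 genes under the filter had means of at most 0.957 FPKM, and 12 of them were listed at 0 in at least 1 library.

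**Figure D1:**
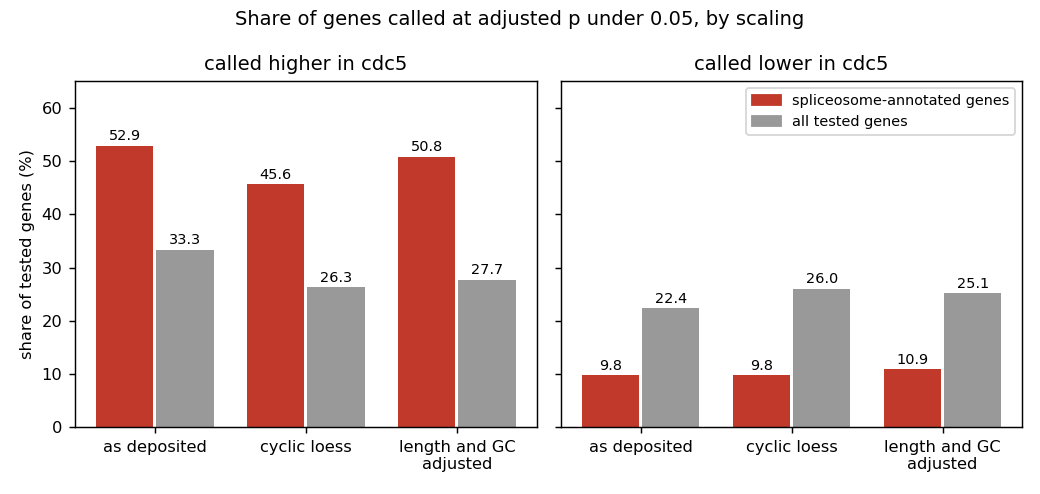
Share of tested genes (%) called higher (left) or lower (right) in cdc5 at a limma adjusted p under 0.05, for spliceosome-annotated genes (red, 193 genes) and all tested genes (grey, 19778 genes), from the deposited values, after cyclic loess scaling, and adjusted for GC content and length. The red share of higher calls is 52.9%, 45.6% and 50.8% where the grey one is 33.3%, 26.3% and 27.7%, and the red share of lower calls is below the grey one in each.

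Scaling changed the counts and not the order of the shares. After cyclic loess scaling, which centres all genes near 0 (median 0.01), 88 were higher and 19 lower, or 45.6% and 9.85%, beside 26.3% and 26.0% of all tested genes (52.3% called). After adjustment for transcript length and GC content, 98 were higher and 21 lower, or 50.8% and 10.9%, beside 27.7% and 25.1% of all tested genes.

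CDC5 itself (AT1G09770) stood at 21.8, 21.3 and 21.0 FPKM in cdc5 libraries, against 38.2, 37.0 and 36.1 FPKM in Col-0 libraries, or 57.5% of the Col-0 mean (log2 fold change -0.77, SE 0.043, limma adjusted p = 2.35e-06). Leaf markers were high in all libraries. Summed over RBCS1A, CAB2, CAB3 and RCA they gave 8417 to 8747 FPKM in cdc5 and 7009 to 8204 FPKM in Col-0. RBCS1A (0.35, limma adjusted p = 0.00869) and RCA (0.09, limma adjusted p = 0.0148) were called higher in cdc5. RCA lost its call without cdc5 replicate 3 or Col-0 replicate 3. CAB2 and CAB3 did not pass (both -0.01). Against the label, the floral organ identity genes AP3, PI and AG were all present, with a sum of 260 to 289 FPKM in cdc5 and 352 to 405 FPKM in Col-0, and all 3 were lower in cdc5, with limma adjusted p = 1.14e-05 for AP3, 0.024 for PI and 0.0214 for AG. Their part in the results below was not tested, and in such bulk samples fewer cells of a type and less RNA per cell cannot be told apart. The root marker PER64 stayed at or below 0.849 FPKM in cdc5 and 0.238 FPKM in Col-0. PI no longer passed with the replicate block or without any of 4 single libraries, nor AG after loess scaling or without any of 3. Of the other 9 genes of the MOS4-associated complex, none of them among the 213, 8 were higher and 0 lower, with a median log2 fold change of 0.42. Of all tested genes, 33.3% were higher and 22.4% lower. Among the 8, PRP19B (0.16, limma adjusted p = 0.0289) lost its call after length and GC adjustment. It also did so without cdc5 replicate 1 or 3, or Col-0 replicate 1 or 2. PRL1 did not pass (0.10, limma adjusted p = 0.0579), but did after loess scaling and without Col-0 replicate 1.

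**Figure D2:**
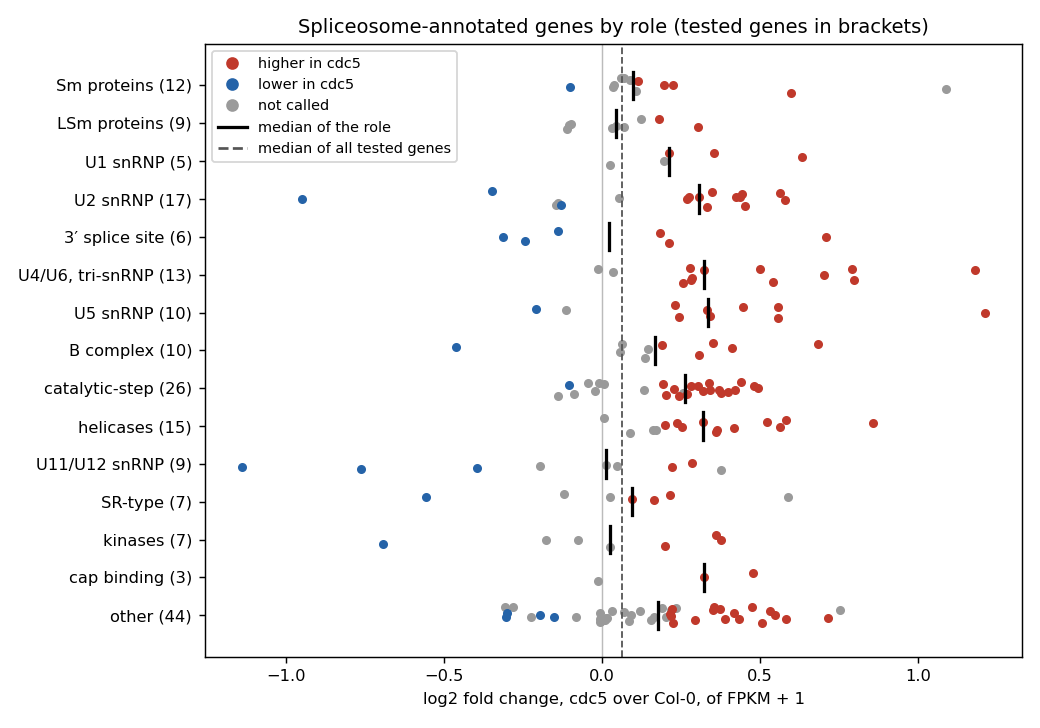
Log2 fold change (cdc5 over Col-0, of FPKM + 1) of each tested spliceosome-annotated gene, with one row per role and the number tested in brackets. Red points were called higher in cdc5, blue points lower, grey points were not called; black bars are the medians of the roles and the dashed line is the median of all tested genes, 0.06. The bars of the U2, U4/U6, U5, cap-binding and helicase rows lie above 0.3, and those of the U11/U12, kinase and 3' splice site rows lie near 0.

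The counts by role that follow stand beside 33.3% higher and 22.4% lower, or 55.8% called, of all tested genes. Counts after loess scaling stand beside 26.3% higher and 26.0% lower. Those after length and GC adjustment stand beside 27.7% higher and 25.1% lower. Genes of the U4/U6 particle and the tri-snRNP had 11 of 13 tested genes higher in cdc5, none lower, and a median log2 fold change of 0.32. A further 4 members fell under the filter. RDM16, the PRP3 homologue of the U4/U6 particle (chromosome 1, 9779003 to 9782907), stood at 34.9, 35.7 and 33.8 FPKM in cdc5 libraries, against 16.2, 13.1 and 15.2 FPKM in Col-0 libraries. Every cdc5 library was above every Col-0 library (log2 fold change 1.18, SE 0.072, limma adjusted p = 3.86e-06). The gene overlaps AT1G28070 on the same strand, and its own isoforms AT1G28060.2 and AT1G28060.3 traded places between libraries of a genotype, AT1G28060.2 holding 18.2%, 100% and 52.3% in cdc5 and 70.8%, 26.0% and 22.1% in Col-0. AT4G12600, a protein of the L7Ae family to which the U4-binding protein SNU13 belongs, had 112, 115 and 112 FPKM in cdc5 and 74.7, 78.0 and 79.7 FPKM in Col-0 (log2 fold change 0.54, SE 0.036, limma adjusted p = 6e-06). AT4G22350, one of several ubiquitin C-terminal hydrolase relatives annotated to spliceosome assembly, had 12.5, 11.4 and 12.4 FPKM in cdc5 and 6.52, 6.23 and 6.93 FPKM in Col-0 (log2 fold change 0.79, SE 0.065, limma adjusted p = 1.97e-05). Its relatives AT4G22285 and AT4G22410 were also called higher (0.50 and 0.70), and AT4G22290 did not pass (0.03). How fragments shared between such copies were assigned is not given, so the split among them is uncertain. PRP31 (0.28), LIS (0.32) and DOT2 (0.29), also of this group, were called higher as well. LIS lost its call after loess scaling and DOT2 after length and GC adjustment.

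The U5 particle carries PRP8, the protein that holds the catalytic RNA core, the helicase BRR2, which unwinds U4 from U6, and the GTPase SNU114. Of 10 tested U5 genes, 8 were higher and 1 was lower, with a median log2 fold change of 0.34. CLO, the more abundant SNU114 gene (AT1G06220, chromosome 1, 1899951 to 1904897), had 49.5, 51.1 and 49.8 FPKM in cdc5 and 33.7, 33.0 and 34.6 FPKM in Col-0 (log2 fold change 0.56, SE 0.038, limma adjusted p = 7.46e-06). GFL, its weakly expressed paralogue (AT5G25230, chromosome 5, 8739545 to 8743880), had the highest log2 fold change of the 102 higher genes: 2.64, 2.67 and 2.70 FPKM in cdc5, against 0.634, 0.601 and 0.519 FPKM in Col-0, a ratio of 4.57 (log2 fold change 1.21, SE 0.099, limma adjusted p = 1.88e-05). The transcript to which the FPKM was assigned changed as well, and how fragments shared by the isoforms were assigned is not given. AT5G25230.2, which starts at 8739709, had 2.59, 2.64 and 2.68 FPKM in the cdc5 libraries and was listed at 0 in every Col-0 library. AT5G25230.1, which starts upstream at 8739545, had 0.0507, 0.0299 and 0.0292 FPKM in cdc5, against 0.634, 0.601 and 0.519 FPKM in Col-0. GFL passed the filter only through the cdc5 libraries, its Col-0 mean being 0.585 FPKM, so it had to be higher in cdc5 to be tested and its rank and p are given as a description; the same holds for the call of AT3G14700, a U4/U6 gene counted above. Both transcripts are annotated with the same coding length of 2922 bases, and differ outside it, AT5G25230.2 beginning with the first coding base. This pair was picked out after its values were seen and carries no usage test, because AT5G25230.1 lay under the filter.

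BRR2A had 48.7, 48.2 and 44.4 FPKM in cdc5 and 37.6, 36.2 and 37.0 FPKM in Col-0 (log2 fold change 0.34, SE 0.046, limma adjusted p = 3.05e-04). BRR2B, the second copy, was also called higher (0.45, limma adjusted p = 5.73e-04). PRP8A gave 0.24 (limma adjusted p = 0.00573) and its minor copy AT4G38780 gave 0.56 (limma adjusted p = 9.34e-04); PRP8A no longer passed after length and GC adjustment, at 0.08. YLS8, the small thioredoxin-like U5 protein related to DIM1 of yeast, was the 1 lower gene, with 101, 96.3 and 95.1 FPKM in cdc5 and 119, 111 and 109 FPKM in Col-0 (log2 fold change -0.21, SE 0.042, limma adjusted p = 0.00266). It no longer passed after length and GC adjustment, at -0.10 (limma adjusted p = 0.0834).

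**Figure D3:**
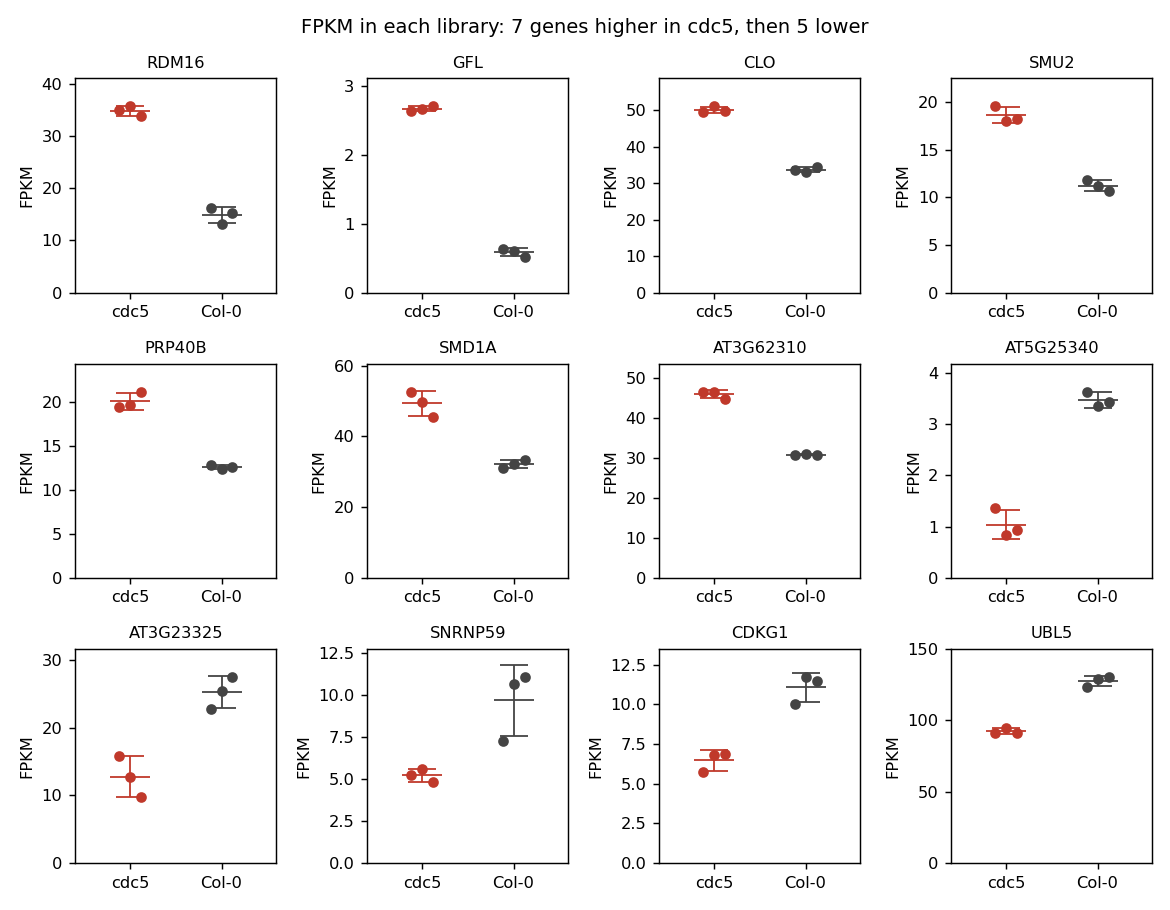
FPKM in each library of 12 named genes, cdc5 (red, left) and Col-0 (grey, right), with the mean and SD of 3 libraries as bars; each panel has its own axis from 0. In each panel the 3 cdc5 points lie all above (the first 7 genes) or all below (the last 5) the 3 Col-0 points.

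Of the U2 particle, 11 of 17 tested genes were higher and 3 lower in cdc5 (median log2 fold change 0.31). ATO, the SF3a60 homologue, had 35.2, 33.3 and 35.3 FPKM in cdc5 and 23.3, 22.3 and 23.8 FPKM in Col-0 (log2 fold change 0.56, SE 0.046, limma adjusted p = 1.9e-05). AT4G21660, a proline-rich spliceosome-associated protein, gave 0.44 (limma adjusted p = 6.19e-05). SF3B3, the largest beta-propeller protein of SF3b, has the neighbouring copies AT3G55200 and AT3G55220, both listed as SAP130A. They gave 0.58 and 0.45 (limma adjusted p = 6.93e-05 and 1.18e-04), and their sum was 38.8, 38.6 and 36.3 FPKM in cdc5 and 26.1, 26.1 and 25.6 FPKM in Col-0. AT3G23325, with GO text of the U2 and U12-type particles, was lower, with 15.9, 12.8 and 9.75 FPKM in cdc5 and 22.9, 25.5 and 27.6 FPKM in Col-0 (log2 fold change -0.95, SE 0.18, limma adjusted p = 0.00586). It overlaps 2 genes on the same strand. AT1G06960, a second copy of the U2B'' protein, gave -0.35 (limma adjusted p = 0.0188) but lost its call after length and GC adjustment, with the replicate block and without any of 4 single libraries, cdc5 replicates 2 and 3 and Col-0 replicates 2 and 3. The first copy, U2B'' (AT2G30260), was called higher, at 0.35.

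U2AF reads the 3' end of the intron as a pair of a large and a small subunit, and its genes moved in both directions. All 6 tested genes of 3' splice site recognition passed, 3 higher and 3 lower. U2AF65B, a large subunit, had 49.6, 50.1 and 47.2 FPKM in cdc5 and 46.3, 40.5 and 42.4 FPKM in Col-0 (log2 fold change 0.18, limma adjusted p = 0.0174). U2AF65A, the other, had 78.7, 80.0 and 75.8 FPKM in cdc5 and 91.3, 86.1 and 81.7 FPKM in Col-0 (-0.14, limma adjusted p = 0.0272). The share of U2AF65B in the summed FPKM of both was 38.5% ± 0.16 in cdc5 and 33.3% ± 1.12 in Col-0 (SD, n = 3 each), with no overlap between the genotypes. The small subunits U2AF35B (-0.31, limma adjusted p = 0.00951) and U2AF35A (-0.24, limma adjusted p = 0.0391) were both lower, the second with overlapping libraries. SF1, the branch point binding protein, was called higher (0.21, limma adjusted p = 0.0255). U2AF65B and U2AF65A each lost the call without any of 4 single libraries. U2AF35A did so without any of 4 libraries, with no filter and after either rescaling; SF1 did so without any of 3 and after either rescaling; U2AF65A also did so after either rescaling. AT1G10320, a CCCH zinc finger protein annotated to 3' splice site binding, kept its call under every alternative, with 13.7, 13.6 and 12.2 FPKM in cdc5 and 6.96, 7.42 and 8.70 FPKM in Col-0 (log2 fold change 0.71, SE 0.085, limma adjusted p = 1.56e-04).

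The U1 particle had 3 of 5 tested genes higher and none lower. PRP40B, which bridges the U1 particle and the branch point in yeast, had 19.4, 19.7 and 21.2 FPKM in cdc5 and 12.8, 12.4 and 12.7 FPKM in Col-0 (log2 fold change 0.63, SE 0.052, limma adjusted p = 2.01e-05). U1A, which binds a loop of U1 RNA, gave 0.35 (limma adjusted p = 0.00177). PRP40A gave 0.21 (limma adjusted p = 0.00483) and did not pass after loess scaling or length and GC adjustment.

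Sm proteins form the ring around the U1, U2, U4 and U5 RNAs, and LSm proteins the ring on U6. Here 4 of 12 Sm genes were higher and 1 lower (median 0.10), and 2 of 9 LSm genes were higher and none lower (median 0.04). After length and GC adjustment the counts were 7 higher and 0 lower of 12 Sm genes (median 0.21) and 5 higher and 0 lower of 9 LSm genes (median 0.17). SMD1A, one of 2 SmD1 genes, had 52.7, 49.8 and 45.6 FPKM in cdc5 and 31.0, 32.3 and 33.4 FPKM in Col-0 (log2 fold change 0.60, SE 0.057, limma adjusted p = 4.32e-05). Its copy AT4G02840 gave 0.11 (limma adjusted p = 0.039, lost with the replicate block and without any of 4 single libraries). The share of AT4G02840 in the pair was 50.6% ± 2.38 in cdc5 and 59.1% ± 0.924 in Col-0 (SD, n = 3 each). SMD1A overlaps AT3G02025 on the same strand and AT3G07600 on the opposite strand, so it was not tested without overlapping genes. The SmE genes AT2G18740 and AT4G30330 gave 0.19 and 0.22 (limma adjusted p = 0.00943 and 0.0107). The most abundant genes that did not pass were all Sm genes: SNRNP-G at 137, 133 and 138 FPKM in cdc5 and 124, 131 and 136 FPKM in Col-0, RUXF (SmF) with a log2 fold change of 0.03, and SMD3B with 0.04. SNRNP-G passed after length and GC adjustment (0.20, limma adjusted p = 9.32e-04) and after loess scaling. LSM8 (AT1G65700), which distinguishes the nuclear LSm ring, was called higher (0.30, limma adjusted p = 0.00101), as was LSM6B (0.18, limma adjusted p = 0.00718); LSM4 did not pass (-0.10, limma adjusted p = 0.0754).

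B complex proteins join before activation. SMU2, which in plants and nematodes takes part in splice site choice, had 19.6, 18.1 and 18.3 FPKM in cdc5 and 11.8, 11.2 and 10.7 FPKM in Col-0 (log2 fold change 0.68, SE 0.058, limma adjusted p = 2.36e-05). PRP38, needed for activation in yeast, gave 0.41 (limma adjusted p = 6.85e-05). UBL5, the ubiquitin-like modifier known as Hub1 in yeast, was among the most abundant genes and lower in cdc5, with 91.0, 94.6 and 91.4 FPKM in cdc5 and 124, 129 and 131 FPKM in Col-0 (log2 fold change -0.46, SE 0.035, limma adjusted p = 1.32e-05). In all, 5 of 10 tested B complex genes were higher and 1 was lower, beside 33.3% higher and 22.4% lower of all tested genes.

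Among proteins of the PRP19-related complex and the catalytic steps, 17 of 26 tested genes were higher and 1 lower (median 0.26). AT5G41770, a Crooked neck protein that scaffolds the complex in yeast and animals, had 38.7, 35.2 and 38.2 FPKM in cdc5 and 27.2, 25.1 and 26.5 FPKM in Col-0 (log2 fold change 0.49, SE 0.052, limma adjusted p = 7.89e-05). AT1G80930 (0.48, limma adjusted p = 5.62e-05) and AT2G44200 (0.42, limma adjusted p = 1.67e-04), annotated to the catalytic and the U2-type spliceosome, were higher as well. SMP1 and SMP2, step 2 factors related to SLU7, gave 0.20 and 0.30 (limma adjusted p = 0.00662 and 2.68e-04), and SMP1 did not pass after length and GC adjustment. Of the PRP18 pair, AT1G03140 gave 0.34 (limma adjusted p = 7.19e-04), while AT1G54590 stayed at or below 0.133 FPKM in every library and was not tested. DBR1, the enzyme that opens the lariat, was higher too (0.44).

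Helicases were 11 higher, 0 lower and 4 not passing of 15 tested, with a median log2 fold change of 0.32. They are also long transcripts, with a median of 3424 bases, and with GC content and length adjusted for, 7 were higher and 1 lower, with a median of 0.08. AT3G62310, described as the probable splicing helicase DEAH2, had 46.5, 46.6 and 44.8 FPKM in cdc5 and 30.8, 30.8 and 30.7 FPKM in Col-0 (log2 fold change 0.56, SE 0.037, limma adjusted p = 6.17e-06), and 0.43 after the adjustment. RH35, a DEAD-box helicase, had 13.95, 13.9 and 14.3 FPKM in cdc5 and 8.96, 9.45 and 8.72 FPKM in Col-0 (0.58, SE 0.055, limma adjusted p = 4.23e-05). AT4G16680, described as a nucleoside triphosphate hydrolase, had 7.17, 6.58 and 6.74 FPKM in cdc5 and 3.20, 2.86 and 3.98 FPKM in Col-0 (0.86, SE 0.10, limma adjusted p = 1.51e-04). RID1, also DEAH10, gave 0.52 (limma adjusted p = 5.52e-05) and RH42, the PRP5-type helicase, 0.36 (limma adjusted p = 2.21e-04). These 5 kept their calls under every alternative that tested them; AT3G62310, RH35 and AT4G16680 overlap other genes and so were not tested in the alternative that leaves such genes out.

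**Figure D4:**
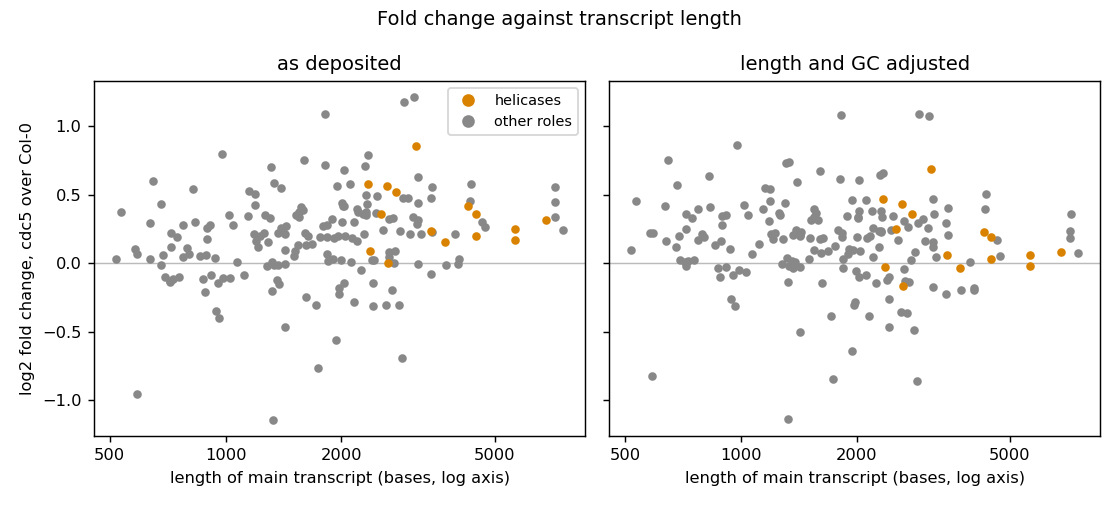
Log2 fold change (cdc5 over Col-0) of each tested spliceosome-annotated gene against the length of its main transcript in bases (log axis), from the deposited values (left) and adjusted for GC content and length (right); helicases are orange. Spearman's rho over these 193 genes is 0.26 on the left and -0.09 on the right, and most orange points drop towards 0.

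Longer transcripts had higher log2 fold changes across the whole table, with a Spearman's rho of 0.24 over all tested genes, given as a description because genes are not independent and share the same 6 libraries. Spliceosome-annotated genes under 1000 bases gave 13 higher and 6 lower of 39, beside 19.4% higher and 33.2% lower of all tested genes of that length. After the adjustment the same 39 genes gave 20 higher and 1 lower, beside 27.5% and 25.8% of all tested genes of that length. What lies behind the length trend was not tested.

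Of 9 tested U11/U12 genes 2 were higher, 3 lower and 4 did not pass, and the median was 0.01. Over all tested genes 33.3% were higher and 22.4% lower, or 55.8% called, so these counts do not set the group apart. After loess scaling 0 were higher and 3 lower (median -0.10), while adjusting for GC content and length left 2 higher and 3 lower (median -0.13). AT5G25340, a ubiquitin-like protein annotated to the U12-type complex, had the lowest log2 fold change of the 193, with 1.36, 0.826 and 0.925 FPKM in cdc5, against 3.64, 3.35 and 3.42 FPKM in Col-0, or 29.9% of the Col-0 mean (log2 fold change -1.14, SE 0.12, limma adjusted p = 7.15e-05). SNRNP59, the 59 kDa U11/U12 protein, had 5.25, 5.57 and 4.81 FPKM in cdc5 and 7.26, 10.7 and 11.1 FPKM in Col-0 (-0.76, SE 0.14, limma adjusted p = 0.00291). SNRNP25 gave -0.40 (limma adjusted p = 0.0216), lost after length and GC adjustment and without any of 5 single libraries. AT4G32270, another ubiquitin-like protein with the U12-type annotation, was higher (0.28, limma adjusted p = 0.0133) but not after loess scaling.

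SR-type proteins, which bind exons and recruit the first particles, gave 3 higher and 1 lower of 7, and kinases gave 3 higher and 1 lower of 7. Beside them, 33.3% of all tested genes were higher and 22.4% lower. Genes with the word arginine in their description were left out at the start, which can remove serine/arginine-rich proteins by wording. The 7 SR-type genes here thus do not stand for SR-type proteins as a whole. For the kinases the balance of calls moved with scaling, to 2 higher and 2 lower after loess (median -0.10) and, with GC content and length adjusted for, 2 higher and 3 lower (median -0.06); the SR-type genes gave 4 higher and 1 lower, and 4 higher and 2 lower, in the same order. SR34b had 10.5, 9.21 and 9.40 FPKM in cdc5 and 14.4, 14.1 and 15.8 FPKM in Col-0 (log2 fold change -0.56, SE 0.070, limma adjusted p = 2e-04). RS31 (0.16, limma adjusted p = 0.0271) and AT4G35785 (0.21, limma adjusted p = 0.0116) were higher; RS31 lost its call with the replicate block and without any of 3 single libraries. CDKG1, a cyclin-dependent kinase known to act on splicing, had 5.73, 6.79 and 6.88 FPKM in cdc5 and 10.004, 11.7 and 11.4 FPKM in Col-0 (-0.69, SE 0.086, limma adjusted p = 1.99e-04). The kinases AT5G22840 and AT3G44850 gave 0.36 and 0.38 (limma adjusted p = 0.00155 and 0.00434).

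Of the cap-binding group, ABH1, the large cap-binding subunit, gave 0.48 (limma adjusted p = 5.52e-05) and SE, the zinc finger protein of microRNA processing, 0.32 (limma adjusted p = 4.62e-04), while CBP20, the small cap-binding subunit, did not pass (-0.01, limma adjusted p = 0.87). The remaining 44 tested genes, which have splicing GO text but no settled place in a particle, gave 17 higher and 4 lower. All tested genes were 33.3% higher and 22.4% lower. Under loess scaling the 44 gave 12 higher and 5 lower, beside 26.3% and 26.0% of all tested genes. Once GC content and length were adjusted for, they gave 16 and 9, beside 27.7% and 25.1%. Among them were the KH-domain proteins AT1G09660 (0.55, limma adjusted p = 1.06e-05) and AT5G56140 (-0.30, limma adjusted p = 0.001), CSU2 (0.51, limma adjusted p = 1.99e-05), the RRM protein AT3G04500 (0.53, limma adjusted p = 8.54e-05) and AT1G54380, a spliceosome protein-like product (0.58, limma adjusted p = 3.73e-04).

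Transcripts gave a similar split. Of 314 tested transcripts of these genes 89 were higher and 20 lower, beside 17.8% and 13.2% of 27441 tested transcripts. In the authors' deposited table, 67 of the 441 transcripts are marked as changed, 47 higher and 20 lower in cdc5, beside 12.2% of the whole table, 7.37% higher and 4.82% lower. An isoform that keeps an intron that another isoform removes was counted as intron-holding. Of 81 such tested transcripts 19 were higher and 4 lower, or 23.5% and 4.94%, beside 21.1% and 3.69% of 5117 in the whole table (24.8% called), shares close to each other.

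Isoform usage, tested with limma's diffSplice, changed in 23 of 77 genes with at least 2 tested transcripts, or 29.9% beside 21.8% of 5456 genes. A test of log ratios, which has little power at this size, called 3 of the 77, CDKG1, YLS8 and RS2Z32, beside 3.65% of all genes, so other usage calls below hold by diffSplice only. Held introns of 4 genes are printed because each lies in the annotated coding sequence of the gene and the isoform that keeps it had a higher share in cdc5. Sequence is from TAIR10.1, 5' to 3' on the strand of the gene, from 12 exon bases before the intron to 12 exon bases after it or to the stop codon where that comes first. Capitals mark the first and last bases of the intron, where they are shown, and a stop codon at the end.
AT3G62310.2, chr3:23058619-23058785, minus strand: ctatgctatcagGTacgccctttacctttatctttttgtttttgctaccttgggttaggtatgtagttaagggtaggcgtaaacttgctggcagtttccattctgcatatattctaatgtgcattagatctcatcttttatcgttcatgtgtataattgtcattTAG
AT4G36690.2 (U2AF65A), chr4:17294592-17294715, minus strand: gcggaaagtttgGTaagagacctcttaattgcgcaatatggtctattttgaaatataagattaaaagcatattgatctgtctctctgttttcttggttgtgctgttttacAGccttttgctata
AT1G49590.3 (ZOP1), chr1:18355478-18355509, plus strand: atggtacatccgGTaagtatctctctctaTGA
AT5G20160.2, chr5:6804751-6804870, minus strand: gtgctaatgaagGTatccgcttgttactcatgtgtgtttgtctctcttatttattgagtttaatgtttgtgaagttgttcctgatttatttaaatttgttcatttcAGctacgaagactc

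AT3G62310.2, the helicase isoform with the first of these introns, which is 253 bases long, had 18.9%, 19.5% and 22.5% of the gene's FPKM in cdc5, against 6.36%, 7.86% and 8.93% in Col-0 (diffSplice adjusted p = 0.00432). Its reading frame ends in the intron, which leaves a coding length of 1722 bases beside 2181 bases in AT3G62310.1. The level of this transcript was 8.77, 9.10 and 10.1 FPKM in cdc5 and 1.96, 2.42 and 2.74 FPKM in Col-0 (log2 fold change 1.62, SE 0.12, limma adjusted p = 8.3e-04), and it is part of the gene sum given above.

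U2AF65A had a higher share of an intron-holding isoform beside a lower gene sum. AT4G36690.2 had 38.4%, 37.5% and 47.3% of the gene's FPKM in cdc5 and 18.0%, 15.99% and 28.6% in Col-0 (diffSplice adjusted p = 0.0123, lost without cdc5 replicate 3 or Col-0 replicate 1). It codes for 1629 bases in place of 1722. ZOP1, a zinc finger protein of splicing and DNA methylation, had 10.9%, 15.2% and 13.6% of its FPKM in AT1G49590.3 in cdc5 and 5.09%, 4.23% and 3.60% in Col-0 (diffSplice adjusted p = 0.0173). That call was lost with the replicate block and without cdc5 replicate 2 or 3 or Col-0 replicate 3. There the stop codon follows 20 bases into the intron and the coding length is 315 bases, beside 729. AT1G49590.3 averaged under 1 FPKM in Col-0, so it passed the filter only through the cdc5 libraries and its usage p is a description. AT5G20160.2, from a second L7Ae-type gene, rose to 3.57, 3.63 and 7.20 FPKM in cdc5, against 0.362, 0.580 and 0.531 FPKM in Col-0 (log2 fold change 1.91, SE 0.27, limma adjusted p = 0.00526), but held only 4.04%, 3.99% and 8.11% of the gene's FPKM in cdc5 and 0.438%, 0.828% and 0.741% in Col-0. Its intron of 96 bases leaves the frame open, with a coding length of 483 bases beside 387. AT5G20160.2 lay under 1 FPKM in every Col-0 library and passed the filter only through the cdc5 libraries. It therefore had to be higher in cdc5 to be tested, and its p is given as a description.

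**Figure D5:**
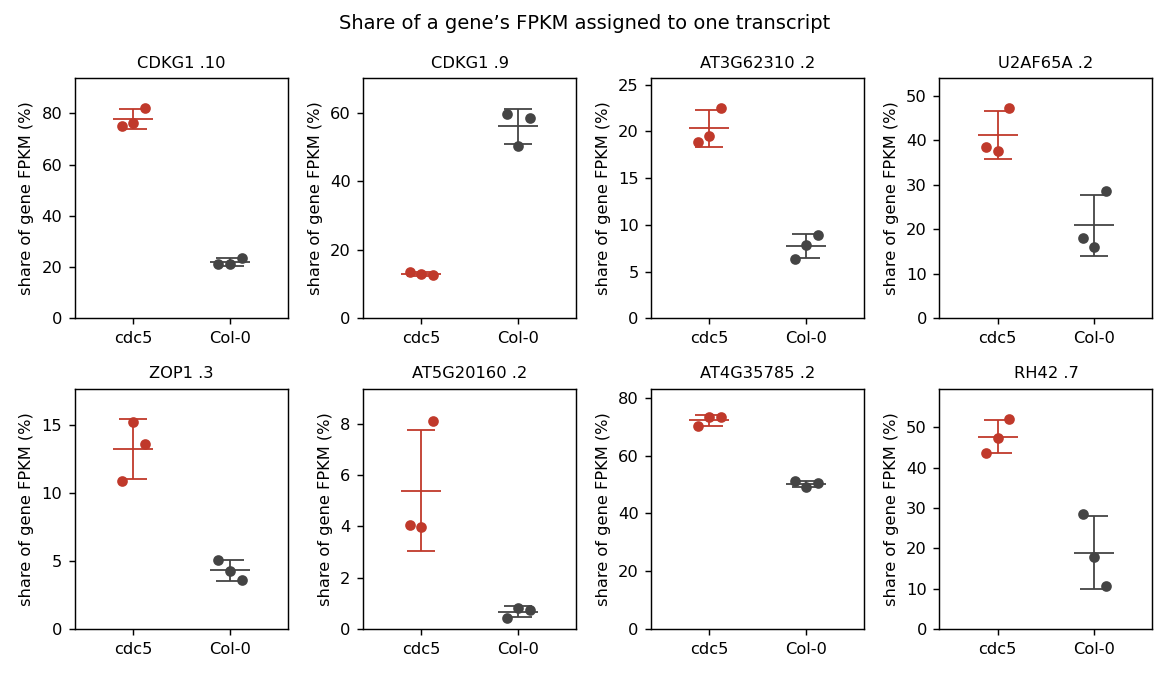
Share (%) of a gene's summed FPKM assigned to one transcript in each library, cdc5 (red, left) and Col-0 (grey, right), with the mean and SD of 3 libraries as bars; each panel has its own axis from 0. In each panel the genotypes do not overlap, and AT5G63370.9 of CDKG1 is the 1 transcript with the lower share in cdc5, at 12.9% against 56.2% in Col-0.

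CDKG1 had the smallest usage p of these genes. AT5G63370.9 held 13.5%, 12.8% and 12.6% of its FPKM in cdc5 and 59.6%, 50.2% and 58.7% in Col-0, and AT5G63370.10 held 75.003%, 76.2% and 82.0% in cdc5 and 21.0%, 21.1% and 23.6% in Col-0 (diffSplice adjusted p = 2.13e-05, log ratio test 0.0118). AT5G63370.10 keeps an intron near the 5' end that AT5G63370.9 removes, and its annotated start codon, at 25386792 of chromosome 5, lies inside it, which gives a coding length of 1650 bases beside 1248 in AT5G63370.9. Transcript AT5G63370.9 fell to 0.771, 0.869 and 0.865 FPKM in cdc5, against 5.96, 5.90 and 6.71 FPKM in Col-0 (log2 fold change -1.97, SE 0.11, limma adjusted p = 3.65e-04), whereas AT5G63370.10 was higher (0.81, limma adjusted p = 0.00948). AT5G63370.9 lay under 1 FPKM in every cdc5 library and passed the filter only through the Col-0 libraries. Its p, and its part in the usage call, are therefore given as a description.

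RH42, RS2Z32, AT4G35785 and SF1 complete the 6 genes with the smallest usage p and a share change of at least 10 points. In RH42, AT1G20920.7 held 47.7% ± 4.14 of the FPKM in cdc5 and 18.9% ± 8.98 in Col-0 (SD, n = 3 each), and AT1G20920.5 held 6.47% ± 0.722 in cdc5 and 28.6% ± 3.87 in Col-0; both code for the same 3501 bases. In RS2Z32, an SR-type zinc knuckle protein, AT3G53500.1 held 10.7% ± 3.32 in cdc5 and 45.8% ± 2.39 in Col-0 and AT3G53500.2 held 74.0% ± 9.34 in cdc5 and 47.1% ± 2.69 in Col-0, with coding lengths of 732 and 855 bases. Its gene sum, 78.2, 76.5 and 83.3 FPKM in cdc5 and 47.3, 43.3 and 70.1 FPKM in Col-0, did not pass (limma adjusted p = 0.0603) but passed without Col-0 replicate 3, with no filter, after either rescaling and with the replicate block. AT4G35785.2 held 72.3% ± 1.91 in cdc5 and 50.2% ± 0.965 in Col-0, and the isoform AT5G51300.2 of SF1, which keeps the intron that the other isoforms remove, held 15.9% ± 6.74 in cdc5 and 3.27% ± 2.00 in Col-0. In YLS8 the change was past the test but small: AT5G08290.2 held 2.53% in cdc5 and 0.169% in Col-0. AT5G51300.2 and AT5G08290.2 averaged under 1 FPKM in Col-0 and passed the filter only through the cdc5 libraries. The usage calls of SF1 and YLS8 are therefore given as a description.

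Some sums of these genes varied between libraries of a single genotype by more than the genotypes differed. SMB, an SmB gene, had 3.73, 7.97 and 38.5 FPKM in cdc5 and 4.79, 5.01 and 4.01 FPKM in Col-0. SRL1, an SR-like splicing factor, had 10.6, 31.9 and 29.9 FPKM in cdc5 and 31.6, 32.5 and 7.12 FPKM in Col-0. Neither passed the test (limma adjusted p = 0.362 and 0.903), and SMB has 4 and SRL1 12 transcripts in the table.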

How the data were processed

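RNA of 3 cdc5 and 3 Col-0 libraries labelled as rosette leaves was poly(A)-selected and sequenced as strand-marked read pairs, per the labels' protocols. Replicate numbers come from sample titles; those of the mutant could also be allele names. No label names separate plants, so each p-value reflects the spread among these libraries only, possibly technical. FPKM per transcript was deposited by the authors in a single file, with their own fold (a ratio), log2 fold, p-value and q-value columns. DESeq2, edgeR, StringTie 1.3.4d, HISAT2 2.0.4 and cutadapt 1.9 are named, without roles, per the submitters' processing notes, beside a mouse build that cannot belong to Arabidopsis. The sources used here do not give how shared or antisense fragments were assigned. Named genes that overlap another gene on the same strand include RDM16, AT3G23325, SMD1A, BRR2A, AT3G55200, AT4G38780, AT1G03140, SNRNP25, LSM4 and AT5G22840. Of the 213 genes, 207 have the same span in TAIR10.1 and 67 overlap another gene; coordinates are the table's.

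The table holds no read counts. Low values of single-transcript genes of at least 600 bases lay within 0.1 of whole multiples of a best-fitting step in only 70.9% to 75.3% of cases (20% without a step), so counts and depth were not recovered and no count model was run.

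FPKM was summed per gene. Features averaging 1 FPKM or more were tested in R 4.3.3 (with version 1.17.8 of data.table) by limma 3.58.1 on log2(FPKM + 1), which understates changes of low genes, with trend and robust moderation, no covariate and Benjamini-Hochberg adjustment over the table. With 3 against 3 libraries, an exact permutation test cannot give a p below 0.10. Usage was tested with diffSplice (Simes). Simulated data held 19778 genes, 200 of them changed. There limma recovered 86%, 52%, 58% and 88% of genes changed by -1, -0.5, 0.5 and 1 on the log2 scale, with 4 false calls. Over 5456 genes, diffSplice recovered 41% of 200 genes with 1 transcript shifted by 1.5 on the log2 scale, with 18 of its 100 calls false. The log ratio test recovered 0. In the real data 55.8% of genes were called and 21.8% for usage, far more than were changed in the simulations, so these rates need not carry over. Plots were drawn with matplotlib 3.10.9 and tables made with pandas 2.3.3 and numpy 2.4.6 in Python 3.11.15.

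The genes, role lists and tests were chosen with earlier results of these data known. Named genes are the 10 highest and 10 lowest log2 fold changes among genes that passed, had no overlap between genotypes and reached 5 FPKM; the 3 smallest adjusted p per role; the 3 most abundant genes that did not pass; the 6 usage genes; and members of paralogue pairs. Others were named after their values were seen. Alternatives were a pseudocount of 0.1, a filter at 5 FPKM or none, cyclic loess scaling, adjustment for length and GC content, a replicate block, leaving out overlapping genes, and leaving out each library; the log ratio usage test was added after seeing the data.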

Additional observations from a re-analysis of the deposited data

How the results depend on the processing

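Of the 121 called genes, 86 (77 higher, 9 lower) kept their call under every alternative that tested them, with 99 left after loess scaling, 98 after length and GC adjustment and 114 with the replicate block; 3 changed sign, all after length and GC adjustment, AT3G11500, AT4G14342 and RZ1C. Loess scaling, length and GC adjustment and no filter gave medians of 0.15, 0.18 and 0.19, and leaving out single libraries 0.19 to 0.23. Lower genes numbered 12 without overlapping genes and 11 to 17 when single libraries were left out. Higher transcripts numbered 59 to 77 when single libraries were left out; lower transcripts numbered 13 with the replicate block and 12 without overlapping genes. Usage was called in 7 genes with a filter at 5 FPKM (25 tested), 15 without overlapping genes and 3 by log ratios; the cause was not tested beyond fewer genes entering. Among named genes, the reversals were CBP20 (-0.0627 to 0.0596 when single libraries were left out), RUXF (-0.13 to 0.12, which passed as lower without Col-0 replicate 1) and SMD3B (-0.00922 to 0.10); 49 other values no longer passed and 8 newly passed. Same-numbered libraries deviated together by correlations of only 0.04, 0.06 and 0.00, so the numbers were not taken as pairs; with the replicate block 103 genes were higher and 16 lower. Depth is unknown, so low genes such as GFL and AT5G25340 carry no counting interval.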
